A study of Mus musculus with 3 samples.

Results

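Mt1 and Mt2, a pair of neighbouring metallothionein genes on mouse chromosome 8, were followed in single embryonic stem (ES) cells with and without cohesin, beside the zinc transporter gene Slc30a1 on chromosome 1. The genes were taken by symbol from the count tables, which gave 3 genes of 52636. The cells were JM8.N4 mouse ES cells of the C57BL/6N strain, in which the cohesin subunit RAD21 had been fused to an auxin-inducible degron. The edited line was the same in both groups and was grown without feeders on gelatin, in serum with leukemia inhibitory factor and the inhibitors PD0325901 and CHIR99021. Control cells received no auxin, and auxin cells received 500 µM indole-3-acetic acid for 6 h, so that auxin itself and the loss of RAD21 cannot be told apart. Cells were sorted into 96-well plates and sequenced by Smart-SCRB, a method that counts the 3′ ends of messenger RNA molecules by unique molecular identifiers (UMIs).

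Metallothioneins are small, cysteine-rich proteins that bind zinc and copper and buffer their free level in the cell. Their genes are switched on by the zinc-sensing factor MTF1, which binds short metal response elements in their promoters, and also by glucocorticoids and oxidative stress. Slc30a1 codes for ZnT1, the exporter that moves zinc out of the cell across the plasma membrane, and is itself an MTF1 target. Mt1 and Mt2 lie in a cluster with Mt4 and Mt3, their relatives of squamous epithelium and brain. The study asked how the loss of cohesin changes the joint expression of genes across cells, and neighbouring genes that share regulators are a case in which joint expression can be read directly.

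The tables held 1536 wells on 16 plates, of which 1335 had more than 2600 detected genes. On 2 plates of replicate 3 the condition in the deposited annotation was the opposite of that in the study's source values for detected genes per cell, and their 168 cells were left out of the comparisons. The 1167 cells used came from 624 control and 543 auxin wells on 14 plates. They made 6 sets, 1 for each replicate and condition, with 168 control and 169 auxin cells in replicate 1, 371 and 290 in replicate 2, then 85 and 84 in replicate 3. The median UMI count of a cell lay between 72317 and 187088 over the sets. Replicates 2 and 3 used the same 96 well barcodes, of which replicate 1 used 0. The summed level of 8 ES cell markers was 2771 to 10046 CPM (UMIs of a gene per 1000000 UMIs) over the sets, and that of 6 fibroblast or feeder markers 1.66 to 27.1 CPM, with 6 primitive endoderm markers at 108 to 555 CPM and 4 neurectoderm markers at 5.38 to 61.8 CPM. Rad21 messenger RNA, which the degron does not target, lay at 20.9 CPM in control and 19.3 CPM in auxin cells of replicate 1, at 31.2 and 34.0 CPM in replicate 2, and at 42.4 and 45.2 CPM in replicate 3. The degron removes the protein, so this transcript does not check the depletion.

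On the mm10 assembly (GENCODE vM21) Mt2 (ENSMUSG00000031762) spans chr8:94172664-94173568 and Mt1 (ENSMUSG00000031765) chr8:94179082-94180327, both on the plus strand. The annotated starts lie 6418 bases apart, and 5513 bases separate the end of Mt2 from the start of Mt1. Slc30a1 (ENSMUSG00000037434) spans chr1:191906767-191913247, on the plus strand. Both metallothionein transcripts have 3 exons, and each coding sequence has 186 bases (62 codons with the stop). The coding sequences are shown because near-identical genes can exchange reads, and capitals mark the 38 bases at which they differ (79.6% identity).
Mt1 coding sequence: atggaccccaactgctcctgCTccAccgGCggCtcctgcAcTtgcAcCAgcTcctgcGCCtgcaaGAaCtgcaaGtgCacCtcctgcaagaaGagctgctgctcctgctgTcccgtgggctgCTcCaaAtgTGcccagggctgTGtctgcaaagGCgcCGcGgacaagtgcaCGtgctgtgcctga
Mt2 coding sequence: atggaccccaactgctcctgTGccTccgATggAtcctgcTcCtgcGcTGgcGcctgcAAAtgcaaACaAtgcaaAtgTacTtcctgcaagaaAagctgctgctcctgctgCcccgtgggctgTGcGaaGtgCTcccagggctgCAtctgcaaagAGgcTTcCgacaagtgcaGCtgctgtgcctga

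The differences were spread along the whole coding sequence. The longest stretch shared by any transcripts of Mt1 and Mt2 was 20 bases, shorter than the 50 bases read from each complementary DNA. No word of 50 bases occurred in transcripts of both genes (0 of 1292 in Mt1), and 0 of the words of either gene occurred in an annotated transcript of another gene. Reads of these transcripts without mismatches thus told Mt1 and Mt2 apart. Mt1 overlapped 0 other annotated genes. Mt2 and Slc30a1 each overlapped 1 gene on the opposite strand, Gm45774 and 1700034H15Rik. Gm45774 held 155 UMIs and 1700034H15Rik 97 UMIs in all 6 sets together. Whether the counting used strand is not given in the sources used here, and without strand the reads of such partners cannot be told apart.

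Stretches before the annotated starts of the pair are shown with the core of the metal response element in capitals. The core was searched as TGCACNC and TGCGCNC, where N is any base, on both strands, in windows of 250 bases before and 50 after the RefSeq start (GRCm38.p6). Only bases before the annotated transcripts are printed.
Mt1, chr8:94178839-94179081, plus strand: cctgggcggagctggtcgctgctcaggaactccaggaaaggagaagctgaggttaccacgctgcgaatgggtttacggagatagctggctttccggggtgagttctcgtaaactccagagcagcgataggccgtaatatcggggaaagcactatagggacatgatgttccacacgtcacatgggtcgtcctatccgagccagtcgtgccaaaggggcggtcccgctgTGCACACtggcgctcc
Mt2, chr8:94172368-94172617, plus strand: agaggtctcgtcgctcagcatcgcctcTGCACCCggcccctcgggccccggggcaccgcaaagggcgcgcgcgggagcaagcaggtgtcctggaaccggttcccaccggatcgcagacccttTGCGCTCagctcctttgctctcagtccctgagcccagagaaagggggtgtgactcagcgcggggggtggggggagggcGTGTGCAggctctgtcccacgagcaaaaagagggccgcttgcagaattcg

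The window of Mt1 held 3 matches, 1 of them in the printed stretch, and that of Mt2 held 4 matches, 3 of them printed. The window of Slc30a1 held 2 matches, both past its printable stretch. Of 32851 promoter windows of the same length, 25.7% held at least 1 match, 6.14% at least 2, 1.31% at least 3 and 0.295% at least 4. A match is a run of letters and not a measured binding site. The first coding bases lie at 94179311 in Mt1 and 94172848 in Mt2, past the ends of the windows, and the bases between were not searched. Whether transcription began at the annotated starts in these cells was not tested, so the matches are no count of the elements of either gene.

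Mt1 and Mt2 were among the abundant transcripts of these cells, and their levels differed far more between replicate 1 and the others than between control and auxin. The gap between replicates 2 and 3 was smaller, with control Mt1 CPM 1.72 times as high in replicate 2. In replicate 1, Mt1 lay at 2967 and 4069 CPM on the control plates and at 3249 and 2756 CPM on the auxin plates. In replicate 2 it lay at 748, 779, 674 and 742 CPM on the control plates and at 678, 786, 851 and 678 CPM on the auxin plates. The plates of the conditions overlapped in both replicates. In replicate 3, Mt1 lay at 427 CPM on the control plate and at 684 CPM on the auxin plate. With the deposited annotation, the plates left out lay at 558 CPM (control) and 747 CPM (auxin).

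Mt2, the other gene of the pair, followed the same order of replicates. In replicate 1 it lay at 2745 and 4149 CPM on the control plates and at 2641 and 2177 CPM on the auxin plates, which were both below the lower control plate. Of 9517 genes averaging 1 count or more per cell, 12.8% lay lower on the auxin plates of replicate 1 without overlap, and 22.4% lay higher. In replicate 2, Mt2 lay at 821, 853, 720 and 856 CPM on the control plates and at 673, 751, 746 and 627 CPM on the auxin plates, and the conditions overlapped. In that replicate 6.80% of genes lay lower on the auxin plates without overlap and 10.9% higher. In replicate 3 it lay at 342 CPM on the control plate and at 458 CPM on the auxin plate. The plates left out lay at 500 CPM (annotated control) and 571 CPM (annotated auxin).

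**Figure D1:**
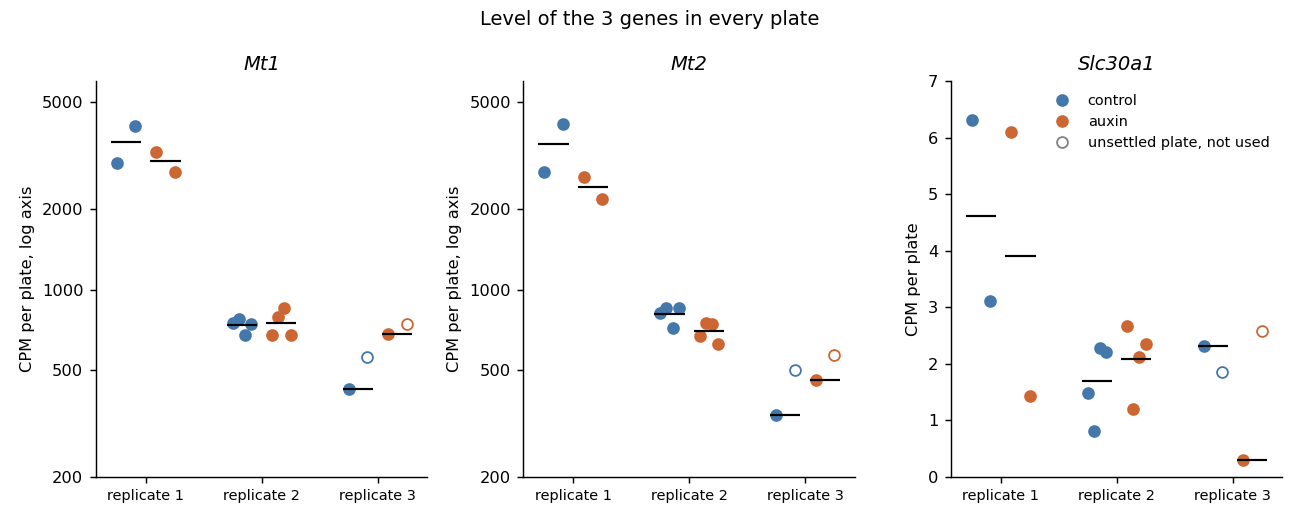
Level of Mt1, Mt2 and Slc30a1 in CPM on every plate (points), by replicate and condition, with the level of all cells used of a set as a black line; Mt1 and Mt2 are on a log axis, and open points are the replicate 3 plates that were left out, coloured by the deposited annotation. The lowest plate of replicate 1 lies at 2177 CPM (Mt2), while the highest plate of replicates 2 and 3 lies at 856 CPM (Mt2).

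Control cells of replicate 1 held 4.83 times the Mt1 CPM of replicate 2 and 8.33 times that of replicate 3. For Mt2 these ratios were 4.30 and 10.2. The median gene had ratios of 0.807 and 0.795, and 2.23% of 9517 genes lay at least 3-fold higher in replicate 1 than in both other replicates. Together the pair took 0.705% of all UMIs in control cells of replicate 1 and 0.0769% in those of replicate 3. Some genes outside the pair also differed widely between replicate 1 and the others: Ftl1, the ferritin light chain, lay at 6005 CPM in control cells of replicate 1, 82.8 CPM in replicate 2 and 84.4 CPM in replicate 3. Of its 50-base words, 50.9% occurred in transcripts of 15 other genes, whereas for Mt1 and Mt2 this share was 0%. Genes with few shared words differed between the replicates too: Cox17, a copper chaperone, lay at 93.6, 0.918 and 0.165 CPM in control cells of replicates 1, 2 and 3, with 3.80% of its words shared. Commd1, a gene of copper export, lay at 120.3, 8.16 and 7.09 CPM, with 4.15% shared. Whether the 3 tables were made with the same annotation and counting settings is not given in the sources used here, so that the replicate ratios of Mt1 and Mt2 may hold a difference in counting, which was not tested.

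Summed per set, Mt1 stood at 3555 CPM in control and 3017 CPM in auxin cells of replicate 1, at 736 and 747 CPM in replicate 2, and at 427 and 684 CPM in replicate 3. The log2 ratio of auxin to control was -0.24, 0.02 and 0.68 in replicates 1, 2 and 3, with a mean of 0.15 ± 0.47 (SD, n = 3; p = 0.75 in an exact permutation test that flips signs, two-sided). With the 2 plates left out placed as annotated, Mt1 had 0.52 in replicate 3 and 0.10 on average. Placed by the source values, these plates gave 0.067 and -0.049, and without replicate 3 the mean was -0.11. For Mt2 the levels were 3495 and 2423 CPM, 812 and 698 CPM, and 342 and 458 CPM. Its log2 ratios were -0.53, -0.22 and 0.42, with a mean of -0.11 ± 0.48 (SD, n = 3; exact sign-flip permutation test, p = 0.75). With the plates as annotated, Mt2 had 0.26 in replicate 3 and -0.16 on average, and with them placed by the source values 0.068 and -0.23. Without replicate 1 its mean was 0.10. Neither gene moved in the same direction in the 3 replicates, and the spread between replicates exceeded the mean change. Summed counts do not tell fewer expressing cells from less RNA per cell. With 3 replicates this test cannot give a p below 0.25.

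Slc30a1 was scarce. Its level was 0.299 to 6.31 CPM over the plates, and 2.38% to 13.1% of the cells of a set held a UMI of it. In replicate 1 control plates lay at 6.31 and 3.12 CPM and auxin plates at 6.09 and 1.44 CPM. In replicate 2 control plates lay at 1.48, 0.811, 2.28 and 2.20 CPM and auxin plates at 2.66, 1.19, 2.12 and 2.36 CPM. The conditions overlapped in both replicates. In replicate 3 the control plate held 14 UMIs (2.31 CPM) and the auxin plate 2 UMIs (0.299 CPM), a ratio of auxin to control of 0.130 with an exact 95% counting interval of 0.0143 to 0.564. The ratios of replicates 1 and 2 were 0.847 (0.611 to 1.17) and 1.23 (0.913 to 1.66). These intervals cover counting error only and treat UMIs of 1 cell as independent. The plates of replicate 3 that were left out lay at 1.86 CPM (annotated control) and 2.58 CPM (annotated auxin). Over the replicates the log2 ratio was -0.96 ± 1.74 (SD, n = 3; exact sign-flip permutation test, p = 0.75), and without replicate 3 its mean was 0.03. With the 2 plates left out placed as annotated, the log2 ratio was -0.56 in replicate 3 and -0.17 on average, and with them placed by the source values -1.12 and -0.35.

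In the fit across all genes, edgeR gave Mt1 a log2 fold change of -0.15 (SE 1.08), Mt2 of -0.44 (SE 1.11) and Slc30a1 of -0.43 (SE 1.04), each with an adjusted p of 1.00. The fit called 0 of 17514 genes (percent called 0), while 33 genes (0.188%) had an unadjusted p below 0.05, and DESeq2 called 0 with 66 below that unadjusted p. With the replicate number as a block the fold changes were 0.14 (SE 0.158; edgeR adjusted p = 0.931) for Mt1, -0.13 (SE 0.161; edgeR adjusted p = 0.936) for Mt2 and -0.55 (SE 0.575; edgeR adjusted p = 0.921) for Slc30a1. The direction of Mt1 thus turned with the block. The blocked fit called 3 genes (0.0171%), with 5.92% of genes at an unadjusted p below 0.05, and none of Mt1, Mt2 and Slc30a1 was among them.

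Mt2 was lower relative to Mt1 in auxin cells of each replicate on the plates used, though in replicate 3 this rested on the placement of plates. The ratio of Mt2 to Mt1 UMIs compares the genes within the same cells and does not depend on how many other transcripts were sequenced. In replicate 1 it was 0.925 and 1.02 on the control plates and 0.813 and 0.790 on the auxin plates. In replicate 2 it was 1.10, 1.09, 1.07 and 1.15 on the control plates and 0.994, 0.956, 0.877 and 0.924 on the auxin plates. Every auxin plate lay below every control plate of its replicate. In replicate 3 it was 0.800 on the control plate and 0.670 on the auxin plate, and the plates left out gave 0.895 (annotated control) and 0.765 (annotated auxin). With these plates placed by the study's source values, the ratio of replicate 3 was 0.778 in control and 0.778 in auxin cells, with no difference, and the mean log2 change over the replicates was -0.18 ± 0.156 (SD, n = 3; exact sign-flip permutation test, p = 0.5).

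**Figure D2:**
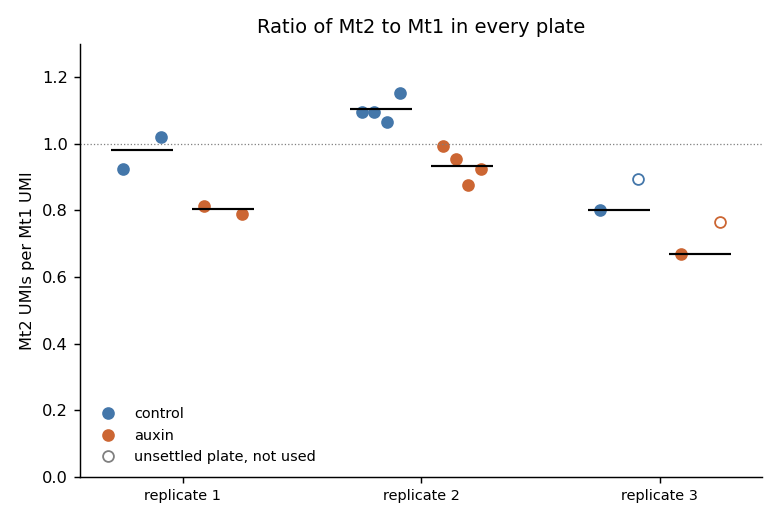
Mt2 UMIs per Mt1 UMI on every plate (points), by replicate and condition, with the ratio of all cells used of a set as a black line; open points are the replicate 3 plates that were left out, coloured by the deposited annotation, and the dotted line marks equal numbers. Among the plates used, auxin plates lie below control plates in each replicate, at 0.790 to 0.813 against 0.925 to 1.02 in replicate 1.

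Per set the ratio went from 0.983 in control to 0.803 in auxin cells of replicate 1, from 1.10 to 0.934 in replicate 2 and from 0.800 to 0.670 in replicate 3. The log2 change was -0.29, -0.24 and -0.26 and averaged -0.26 ± 0.026 (SD, n = 3), which is a 0.833-fold ratio. The change exceeded its spread between replicates, and its exact sign-flip permutation test gave p = 0.25, the smallest that 3 replicates allow, so that the test cannot pass a threshold of 0.05. The median over cells of the ratio in a cell, taken in cells with at least 10 UMIs of the pair, changed by -0.27, -0.27 and -0.16 on the log2 scale (mean -0.24 ± 0.062, SD, n = 3; exact sign-flip permutation test, p = 0.25). Among all 5888 pairs of genes with starts within 50 kb, 32.9% had a ratio without overlap in replicate 1 and 14.8% in replicate 2, 1.99% had a ratio without overlap and in 1 direction in the 3 replicates, and 33.0% changed by at least as much on the log2 scale. Among the 237 such pairs with both genes at a mean of at least 20 counts, these shares were 3.80% and 14.8%. In replicate 3, with 1 plate per condition, any change is without overlap. The conditions also differed in depth, with a median of 104442 UMIs in control and 113617 in auxin cells of replicate 1, 143842 and 187088 in replicate 2, then 72317 and 75376.5 in replicate 3. In cells thinned to 20000 UMIs the ratio went from 0.996 to 0.792 in replicate 1, from 1.09 to 0.944 in replicate 2 and from 0.802 to 0.626 in replicate 3, a mean log2 change of -0.30 ± 0.077 (SD, n = 3; exact sign-flip permutation test, p = 0.25). Thinning takes UMIs of both genes at the same rate, so it moves their ratio only through sampling and the shallower cells left out.

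Nearly all cells held both transcripts. Mt1 was detected in 95.3% to 100% of the cells of a set. Mt2 was detected in 95.96% to 100% of cells in replicates 1 and 2, in 83.5% of control cells of replicate 3 (71 of 85, exact 95% interval 73.9% to 90.7%) and in 97.6% of auxin cells of replicate 3 (82 of 84, 91.7% to 99.7%). Both were detected in 99.4% of control and 99.4% of auxin cells of replicate 1, in 94.1% and 94.8% in replicate 2, and in 82.4% and 95.2% in replicate 3. The difference of auxin and control was 4.55 ± 7.23 percentage points (SD, n = 3; exact sign-flip permutation test, p = 0.25), made of 0.0035, 0.758 and 12.9 points in replicates 1, 2 and 3. The value of replicate 3 was 9.18 points with the 2 plates left out placed as annotated (mean 3.31) and 3.77 points with them placed by the source values (mean 1.51). Without replicate 3 the mean was 0.381 points. With all deposited wells it turned to -2.17 points, with -17.4 points in replicate 2. Cells with neither transcript numbered 0 and 0 in replicate 1, 5 and 4 in replicate 2, then 3 and 1 in replicate 3. In control cells of replicate 3, 11 cells held Mt1 alone and 1 held Mt2 alone.

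Joint detection left little room above what independent genes would give. The product of the shares of Mt1 and Mt2 was 92.9% in control and 93.6% in auxin cells of replicate 2 and 79.6% and 94.1% in replicate 3. The observed share exceeded it by 1.22 and 1.27 points in replicate 2 and by 2.75 and 1.11 points in replicate 3, against 0 points in both sets of replicate 1. In each of those sets 1 gene of the pair was in 100% of cells, which fixes the excess at 0. The difference between conditions was -0.53 ± 0.97 points (SD, n = 3; exact sign-flip permutation test, p = 1). In cells thinned to 20000 UMIs, both transcripts were found in 98.2% of control and 99.4% of auxin cells of replicate 1, in 92.8% and 91.7% in replicate 2, and in 73.8% and 89.9% in replicate 3. Replicate 2 then changed by -1.14 points, against the direction of the others, and the mean change was 5.37 ± 9.33 points (SD, n = 3; exact sign-flip permutation test, p = 0.5). The excess of replicate 3 was 6.85 and 2.20 points in thinned cells. The excess was then lower in auxin cells in the 3 replicates, with changes of -0.58, -0.24 and -4.65 points (mean -1.82 ± 2.45, SD, n = 3; exact sign-flip permutation test, p = 0.25). The auxin excess of replicate 1 could only be 0, as Mt1 was in 100% of those thinned cells, so the shared direction rests on replicates 2 and 3. With at least 3 UMIs of each gene, the excess was 1.18 points in control and 0 in auxin cells of replicate 1, 4.15 and 2.80 points in replicate 2, and 6.67 and 3.77 points in replicate 3. This change averaged -1.81 ± 0.95 points (SD, n = 3; exact sign-flip permutation test, p = 0.25), so that the size of the change depended on the number of UMIs asked for. Here too Mt1 was in 100% of auxin cells of replicate 1, which fixed their excess at 0. Detection was close to its ceiling in the 6 sets except in control cells of replicate 3.

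Amounts of Mt1 and Mt2 varied widely from cell to cell. In control cells of replicate 2 Mt1 had a lower quartile of 302 CPM, a median of 563 CPM and an upper quartile of 984 CPM, and its highest cell held 3475 CPM. Mt2 in the same cells had quartiles of 316, 618 and 1120 CPM and a highest cell of 3819 CPM. The coefficient of variation (CV) of Mt1 across cells was 63.9% in control and 65.9% in auxin cells of replicate 1, 79.6% and 83.8% in replicate 2, then 98.3% and 79.4% in replicate 3. That of Mt2 was 71.2% and 72.1%, 79.1% and 88.4%, and 130.9% and 94.4%. Counting alone at the mean UMI number of a cell would give 5.12% to 18.1% for Mt1 and 5.16% to 20.3% for Mt2, far below the CVs seen. The CV changed with auxin by -4.25 ± 12.7 points for Mt1 and by -8.75 ± 24.4 points for Mt2 (SD, n = 3; exact sign-flip permutation tests, p = 1 each), with rises in replicates 1 and 2 and falls in replicate 3. Both means turned to rises with the replicate 3 plates placed by the source values (1.81 and 1.10 points). They also turned with all deposited wells (5.84 and 13.1) and without replicate 3 (3.05 and 5.13).

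Cells high in Mt1 were high in Mt2. The Spearman correlation (rho) of their CPM across cells was 0.90 in control and 0.91 in auxin cells of replicate 1, 0.79 and 0.72 in replicate 2, then 0.82 and 0.74 in replicate 3. On single plates rho lay between 0.56 and 0.92. Correlated within plates and averaged, the values of replicate 2 were 0.78 in control and 0.70 in auxin cells. These correlations are over cells that share a culture and plate libraries, and are given as a description.

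**Figure D3:**
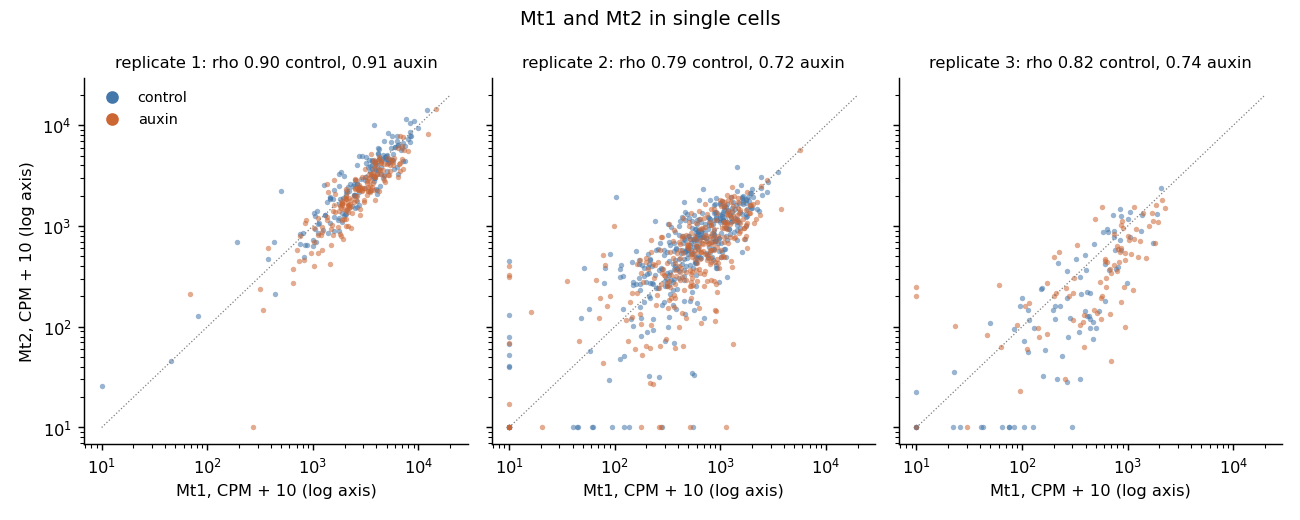
Mt1 against Mt2 in each of the 1167 cells, as CPM plus 10 on log axes, for replicates 1, 2 and 3, with control and auxin cells in separate colours; the dotted line marks equal levels, and cells at 10 on an axis held no UMI of that gene. The points of replicate 1 form a narrow band at high levels, and those of replicates 2 and 3 a wider one at lower levels, with rho from 0.72 to 0.91.

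The difference of rho between auxin and control cells was 0.01, -0.07 and -0.08 in replicates 1, 2 and 3, with a mean of -0.050 ± 0.051 (SD, n = 3; exact sign-flip permutation test, p = 0.5). Its mean was smaller than its SD over the replicates with this measure, but not with every other. The levels and the depth of the sets differed too, with 381 Mt1 UMIs per cell in control cells of replicate 1 and 30.5 in those of replicate 3. In cells thinned to 20000 UMIs, rho was 0.88 in both sets of replicate 1, 0.72 and 0.65 in replicate 2, then 0.81 and 0.66 in replicate 3. It was lower in auxin cells in the 3 replicates, with a mean change of -0.075 ± 0.070 (SD, n = 3; exact sign-flip permutation test, p = 0.25). Pearson correlations of log2(CPM + 10) were 0.93 and 0.89 in replicate 1, 0.76 and 0.66 in replicate 2, then 0.81 and 0.68 in replicate 3, in control and auxin cells. They were also lower in auxin cells in the 3 replicates, with a mean change of -0.090 ± 0.045 (SD, n = 3; exact sign-flip permutation test, p = 0.25). On raw counts the change of rho was -0.023 ± 0.038, with a rise in replicate 1. With the 2 plates left out placed as annotated, the change of rho on CPM was -0.0066 in replicate 3 and -0.024 ± 0.045 on average, and with all deposited wells 0.022 in replicate 3 and -0.027 ± 0.043 on average (SD, n = 3). The rank correlation of Mt1 CPM with the UMI count of the cell was -0.23 to 0.16 over the sets, and that of Mt2 -0.18 to 0.17.

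Among neighbouring genes averaging 1 count or more per cell, Mt1 and Mt2 were the most closely correlated by the mean of rho over the 6 sets. This mean was 0.81, the highest of 5888 pairs with starts within 50 kb, and also the highest of the 1408 pairs within 10 kb and of the 237 pairs with both genes at a mean of at least 20 counts. Within the sets the pair had rank 1 in both conditions of replicates 1 and 3, rank 2 in control and rank 4 in auxin cells of replicate 2. Median neighbouring pairs had a rho of 0.02 to 0.08, and the 95th percentile was 0.18 to 0.24. The next pairs were mt-Rnr1 with mt-Rnr2, the ribosomal RNAs of the mitochondrial genome, with a mean rho of 0.75, and mt-Nd1 with mt-Cytb, respiratory chain genes of the same genome, with 0.61. Lefty2 and Lefty1, which code for inhibitors of Nodal signalling and start 41914 bases apart, had 0.46, the highest mean of nuclear genes after the metallothioneins. The change of rho with auxin had a median of 0.0086 over the pairs, and 18.8% of pairs fell by as much as Mt1 and Mt2 or more.

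**Figure D4:**
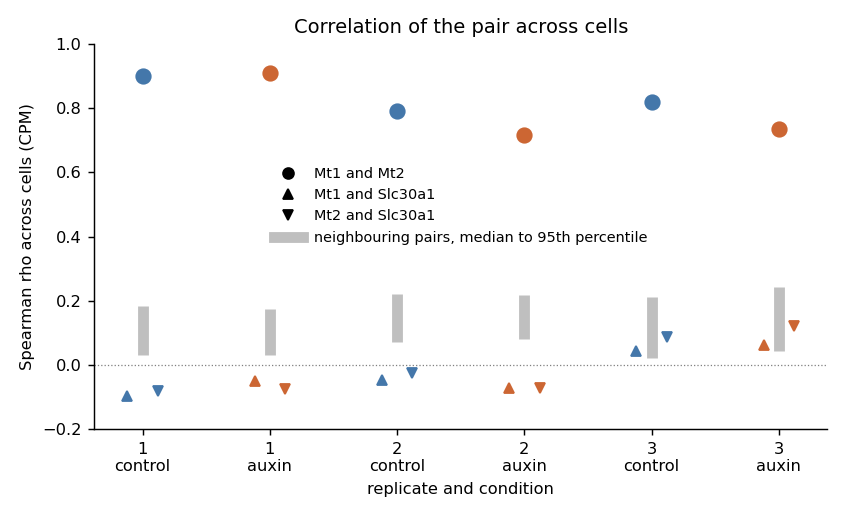
Spearman correlation of CPM across cells for Mt1 with Mt2 (circles), Mt1 with Slc30a1 (upward triangles) and Mt2 with Slc30a1 (downward triangles) in each replicate and condition, with grey bars from the median to the 95th percentile of 5888 neighbouring gene pairs. Mt1 with Mt2 lies at 0.72 to 0.91, above every grey bar, while the correlations with Slc30a1 lie between -0.10 and 0.12.

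Slc30a1 did not follow the pair across cells. Its rho with Mt1 was -0.10 in control and -0.05 in auxin cells of replicate 1, -0.05 and -0.07 in replicate 2, then 0.04 and 0.06 in replicate 3. With Mt2 it was -0.08 and -0.07, -0.03 and -0.07, and 0.09 and 0.12. The differences between conditions were 0.015 ± 0.037 for Mt1 and -0.0012 ± 0.040 for Mt2 (SD, n = 3; exact sign-flip permutation tests, p = 0.75 and p = 1). At 2 to 105 UMIs of Slc30a1 per set, a relation between single cells was not detectable at this depth. The genes closest to Slc30a1 by mean rho were Yjefn3 (0.15), Vrtn (0.15), Det1 (0.14), Tro (0.14) and Cnksr3 (0.14), and such weak values in sparse counts are no finding.

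The genes most like Mt1 and Mt2 across cells were far behind the pair itself. By the mean of rho with Mt1 and Mt2 over the 6 sets they were Fabp3 (0.39), a fatty acid-binding protein, Txn1 (0.33), the redox protein thioredoxin, Fabp3-ps1 (0.31), Ifitm1 (0.28), an interferon-induced membrane protein, and Apoe (0.28), a lipid carrier. The median of the 9507 genes compared was 0.0088. Fabp3 lay at 0.33 to 0.42 and Ifitm1 at 0.25 to 0.30 over the sets, whereas Txn1 ran from 0.01 in auxin cells of replicate 2 to 0.50 in auxin cells of replicate 3. Fabp3-ps1 is named as a pseudogene of Fabp3 and may share its reads.

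The other genes of zinc handling passed no test, but neither did any gene tested in the fit without the block. With the replicate block 0 of them were called too, and 1 importer and 0 exporters had an unadjusted edgeR p below 0.05. The background for these lists is the fit across all genes, which called 0 of 17514 genes with a median log2 fold change of -0.0010, and in which 15.6% of genes lay higher in auxin cells in the 3 replicates and 13.7% lower. Of 9 exporters of the Slc30 family besides Slc30a1, 7 were tested, 0 were called in either direction by edgeR, and their median log2 fold change was 0.07. Among these exporters 1 lay higher and 1 lower in auxin cells in the 3 replicates. Slc30a5, which loads zinc into the secretory pathway, stood at 23.0 CPM in control and 34.6 CPM in auxin cells of replicate 1, 18.9 and 23.8 CPM in replicate 2, and 15.5 and 12.9 CPM in replicate 3. Of 14 importers of the Slc39 family, 11 were tested, 0 were called and the median was 0.14, with 3 higher and 1 lower in auxin cells in the 3 replicates. Slc39a4, which takes zinc up at the cell surface, stood at 69.3 and 64.6 CPM, 27.9 and 33.7 CPM, and 74.2 and 58.8 CPM in control and auxin cells of replicates 1, 2 and 3.

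Mtf1, the zinc-sensing activator of Mt1 and Mt2, stood at 18.2 CPM in control and 20.4 CPM in auxin cells of replicate 1, at 15.6 and 14.5 CPM in replicate 2, and at 21.3 and 22.6 CPM in replicate 3. Mt4 held at most 4.66 CPM in any set, and Mt3 at most 2.12 CPM, too little for Mt3 to enter the test. Of the 3 genes of this list, 2 were tested and 0 were called, with a median log2 fold change of -0.12.

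Lists of other signals known to reach metallothionein genes gave 0 calls as well. As the fit without the block called no gene at all, this cannot tell whether they responded. With the replicate block 0 were called too. In that blocked edgeR fit 1 copper, 1 iron, 2 oxidative stress and 1 glucocorticoid gene had an unadjusted p below 0.05, as did 5.92% of all genes. The medians below are without the block. Of 9 genes of copper handling, 9 were tested and the median log2 fold change was 0.04, with 1 higher and 0 lower in auxin cells in the 3 replicates. Of 8 genes of iron handling, 8 were tested and the median was -0.09, with 2 higher and 0 lower in auxin cells in the 3 replicates. Of 10 oxidative stress genes, 9 were tested and the median was 0.09, with 3 higher and 1 lower in auxin cells in the 3 replicates. Srxn1, which repairs oxidised peroxiredoxins, was one of the 3, at 22.6 and 30.2 CPM, 20.2 and 38.6 CPM, and 12.4 and 22.1 CPM in control and auxin cells of replicates 1, 2 and 3 (log2 fold change 0.67, SE 0.42, edgeR adjusted p = 1.00, and 0.652 with the replicate block). Of 7 genes of the glucocorticoid response, 7 were tested and the median was -0.02. Sgk1, a kinase gene induced by glucocorticoids, was the 1 lower in the 3 replicates, at 166.4 and 152.7 CPM, 94.3 and 25.2 CPM, and 240.7 and 161.2 CPM (log2 fold change -0.52, SE 0.73, edgeR adjusted p = 1.00).

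Around the pair, 35 other protein-coding genes start within 1 Mb of Mt1, of which 25 were tested. None was called by edgeR with or without the block (0 of 25, and 0 with an unadjusted p below 0.05), and their median log2 fold change was 0.15. In auxin cells 9 of the 25 lay higher in the 3 replicates and 0 lay lower, where 15.6% and 13.7% of all genes did so. Among the 9, Pllp, Dok4, Adgrg1 and Drc7 held at most 2.32 CPM in any set. Pllp and Drc7 held 0 CPM in control cells of replicate 3. Arl2bp rose only from 29.7 to 30.0 CPM in replicate 2 and from 25.4 to 25.6 CPM in replicate 3. Nup93, a nuclear pore gene next to the cluster, was one of the 9, at 112.8 and 131.1 CPM, 187.8 and 200.2 CPM, and 149.2 and 172.9 CPM in control and auxin cells of replicates 1, 2 and 3. Bbs2, a cilium gene on the other side of the cluster, was another, at 8.88 and 14.9 CPM, 16.4 and 16.9 CPM, and 10.2 and 18.8 CPM. Mt1 and Mt2 themselves changed direction between the replicates.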

How the data were processed

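Single-cell RNA of 3 replicates, each with control and auxin cells, was analysed from tables that the authors deposited as raw UMI counts per gene and well. The authors removed adapters, tagged reads by barcode and UMI and aligned them to mm10, per the labels and the methods. The aligner, counting program and annotation are not given in the sources used here. Deposited annotation gave detected genes, the percent of ERCC counts per well, and the saturation per plate as a fraction, and summed counts recomputed here equalled the deposited ones in 1536 of 1536 wells. Saturation was 0.283 to 0.314 in replicate 1, 0.539 to 0.579 in replicate 2 and 0.470 to 0.531 in replicate 3, which sets how much deeper sequencing could add.

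The filter of the study's methods, more than 2600 detected genes, was applied to the wells. In replicate 1, wells annotated as RAD21-positive and RAD21-negative were read as control and auxin. Cells were sorted into single wells and no doublet caller was run. CPM is a gene's UMIs per 1000000 UMIs of the cell, plate or set. The 3 replicates were the unit of every comparison, with two-sided exact sign-flip permutation tests. Counts summed per replicate and condition were tested with edgeR 4.0.16 (quasi-likelihood, TMM, filterByExpr, Benjamini-Hochberg, threshold 0.05) in R 4.3.3 and with DESeq2 1.42.0, and SEs were taken from the F value. The fit was also run on simulated data with 200 changed genes, and as its outcome is not reported here it lends no support to the fit. Replicate numbers pair the samples: the procedure was repeated as a whole, and deviations of control and auxin sums correlated at 0.866, 0.822 and 0.656 in replicates 1, 2 and 3. Python 3.11.15 did the rest, and 99.6% of gene identifiers had a GENCODE position.

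Genes named beside Mt1, Mt2 and Slc30a1 were Rad21, the 5 genes of highest mean rho with the pair and with Slc30a1, examples of fixed gene lists, and the neighbouring pairs of highest rho. The genes, lists and comparisons were chosen with earlier results of these data known. Alternatives were the block, DESeq2, RLE size factors, no count filter, more than 4000 detected genes, all wells, both placements of the unsettled plates, each replicate left out, thinning to 20000 UMIs (27 cells were shallower), other correlation measures and a 10 kb limit. The median cell ratio, the ratio in thinned cells and the pairs with a mean of at least 20 counts were added after seeing the data.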

Additional observations from a re-analysis of the deposited data

How the results depend on the processing

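The mean change of the Mt2 to Mt1 ratio was below 0 under the alternatives run (log2 -0.30 to -0.18), and -0.27 to -0.25 when leaving out each replicate. With the replicate 3 plates placed by the study's source values it was -0.18 with an SD of 0.156, the change of replicate 3 was 0.00034, and the replicates no longer shared a direction. The pair kept rank 1 among neighbouring pairs under both alternatives. Of 148 alternative values over 16 results, 25 turned direction, all of changes smaller than their SD or SE, and the cause was not tested.

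The replicate block turned the fold change of Mt1 to 0.14 in edgeR and 0.12 in DESeq2, and raised the genes called from 0 to 3 in edgeR and 57 in DESeq2; it changed no call of Mt1 or Mt2, nor of Slc30a1 in edgeR, while DESeq2 with the block gave Slc30a1 no adjusted p. Leaving out each replicate gave 0 calls, edgeR fold changes of -0.23 to 0.29 for Mt1, with the highest without replicate 1, -0.51 to -0.01 for Mt2 and -0.64 to -0.13 for Slc30a1, and log2 CPM ratios of -0.11 (without replicate 3) to 0.35 for Mt1, -0.37 to 0.10 (without replicate 1) for Mt2 and -1.59 to 0.029 (without replicate 3) for Slc30a1. It gave changes of 0.381 (without replicate 3) to 6.82 points in joint detection, -0.824 to 0.0277 (without replicate 3) points in its excess, -0.079 (without replicate 1, SD 0.0066) to -0.033 in rho of the pair, -0.0020 to 0.035 in rho of Mt1 with Slc30a1, -0.019 to 0.021 in rho of Mt2 with Slc30a1, and -8.45 to 3.05 and -17.8 to 5.13 points in the CV of Mt1 and Mt2, both highest without replicate 3.

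With all deposited wells, joint detection changed by -2.17 points, its excess by 3.16 points, rho of Mt2 with Slc30a1 by 0.023, and the CV of Mt1 and Mt2 by 5.84 and 13.1 points. With the replicate 3 plates placed by the source values, the log2 CPM ratio of Mt1 was -0.049, the excess changed by 0.0103 points, rho of Mt2 with Slc30a1 by 0.037, and the CVs by 1.81 and 1.10 points. With the plates as annotated, rho of Mt1 with Slc30a1 changed by -0.018. The Spearman correlation of Mt2 with Slc30a1 changed by 0.012 on raw counts, 0.0015 as a partial correlation given the UMI count and 0.0011 within plates. Thinned counts gave no correlation with Slc30a1 in auxin cells of replicate 3, where no UMI of it was left.

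Of the 3 genes Slc30a1 held the fewest counts, at 2 to 105 UMIs per set, and 3 replicates allow no exact p below 0.25.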
